A study of Mus musculus with 4 samples.

Results

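The vomeronasal receptor genes examined here were all genes on the array whose design name begins with V1r, V2r or Vmn and whose probes lie on a set of autosomes chosen for the comparison (mouse build mm9). The set of autosomes was fixed with earlier results of these data known. Within it, genes were chosen by name and position only. The choice gave 72 genes with 247 probes, out of 20795 named genes and 170305 probes on the whole array. Of these genes 69 belong to the V2R family and 3 to the V1R family. They lie on chromosomes 3 (5 genes), 5 (10 genes), 7 (27 genes), 10 (7 genes) and 17 (23 genes). All names were matched in RefSeq, 69 as current symbols and 3 as older ones: V1rd6 is now Vmn1r65, V1rf2 is Vmn1r235 and V1rk1 is Vmn1r87. RefSeq lists 71 of them as protein coding and Vmn2r-ps11 as a transcribed pseudogene. Another 10 genes with such names lie on other chromosomes and were not members.

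DNA of 4 liver tumours, each from a different C57BL/6J mouse whose liver had lost Trp53, the gene of the p53 tumour suppressor, was measured by array comparative genomic hybridisation. Tumour DNA was labelled with Cy5 and hybridised together with Cy3-labelled reference DNA, and a log2 ratio above 0 stands for more tumour than reference DNA. Both channels carry the genotype label Trp53-/- and the label male, and the mice were untreated. The series' design describes the reference as spleen DNA pooled from 3 littermates of matching sex, and the labelling protocol instead names liver as the reference tissue.

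Vomeronasal receptors are G protein-coupled receptors through which sensory neurons of the vomeronasal organ detect pheromones and other social odours. V1R receptors are found in neurons with the G protein subunit Gnai2 and mostly bind small molecules, and V2R receptors, which have a long extracellular domain, are found in neurons with Gnao1 and mostly bind peptides and proteins. Both families sit in tandem gene clusters that grew by duplication.

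The probes are single-stranded DNA of up to 60 bases, and the array holds their sequences. The sequences below are shown because single-probe results turn on the first 3 and the last 2 are the GC extremes in Vmn2r99. Capitals mark G and C. They are the probe with the lowest mean of all 247 (Vmn2r110, chr17:20711948-20712007), the probe with the lowest adjusted p (Vmn2r82, chr10:78839907-78839966), the probe with the highest mean (Vmn2r55, chr7:13252293-13252352), and the probes of lowest and highest GC content in Vmn2r99 (chr17:18737915-18737974 and chr17:19363708-19363757). Positions are on mm9 as the files give them, which do not state a strand. Whether a probe lies in an exon or an intron is not given, since no mm9 annotation was used here.
Vmn2r110: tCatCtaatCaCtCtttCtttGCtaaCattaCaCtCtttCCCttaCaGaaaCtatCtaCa
Vmn2r82: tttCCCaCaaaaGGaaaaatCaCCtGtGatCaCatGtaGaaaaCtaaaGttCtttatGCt
Vmn2r55: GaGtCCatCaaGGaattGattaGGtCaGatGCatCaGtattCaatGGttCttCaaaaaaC
Vmn2r99 (lowest GC): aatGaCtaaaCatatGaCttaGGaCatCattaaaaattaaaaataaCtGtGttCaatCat
Vmn2r99 (highest GC): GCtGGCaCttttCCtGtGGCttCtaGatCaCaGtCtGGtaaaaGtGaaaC
The first 2 have a GC content of 33.3%, the Vmn2r55 probe has 36.7%, and the Vmn2r99 probes have 23.3% and 46%. No member probe shared a stretch of 20 bases with any other probe on the array (0 of 247), either strand included.

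Each tumour had 1 array, and precision is limited by that number. Of the 247 member probes, 1 was not well above background in the red channel of tumour 2, and none in the other tumours. The file of tumour 2 marks its spread metric as out of range, and tumours 1 and 4 were hybridised on 1 slide. Tumour 1, labelled male like the others, had a mean log2 ratio of 0.81 on X and -3.03 on Y, against -0.05 to 0.18 and -1.12 to -0.43 in the others. Results with each tumour left out are therefore given. The correlation of ratio and probe GC over autosomal probes was 0.22, 0.13, -0.049 and 0.13 for tumours 1 to 4. Over the member probes these correlations were 0.47, 0.38, -0.052 and 0.19.

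As a group the vomeronasal receptor genes lay slightly below the reference in tumours 1 and 2, slightly above it in tumour 3 and near it in tumour 4. The median over the 72 genes was -0.16, -0.15, 0.10 and -0.036 for tumours 1 to 4, a mean of -0.060 ± 0.12 (SD, n = 4). Over all named genes the medians were 0.030, -0.0011, -0.024 and -0.0084. Values below 0 were found for 54 members in tumour 1 (75% of them, against 44.1% of all named genes) and for 57 in tumour 2 (79.2% against 50.2%). In tumour 3 only 14 members were below 0 (19.4% against 58%), and in tumour 4 there were 46 (63.9% against 53.1%). The average over the 4 tumours is thus smaller than the spread between them, and no direction is shared by all 4. Without tumour 1 the mean of the medians was -0.027, and without tumour 3 it was -0.11. The sign against 0 in tumour 3 depended on the background correction. With normexp, a model-based correction of the raw signals, the median of the members there was -0.022, beside -0.052 for all named genes.

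**Figure D1:**
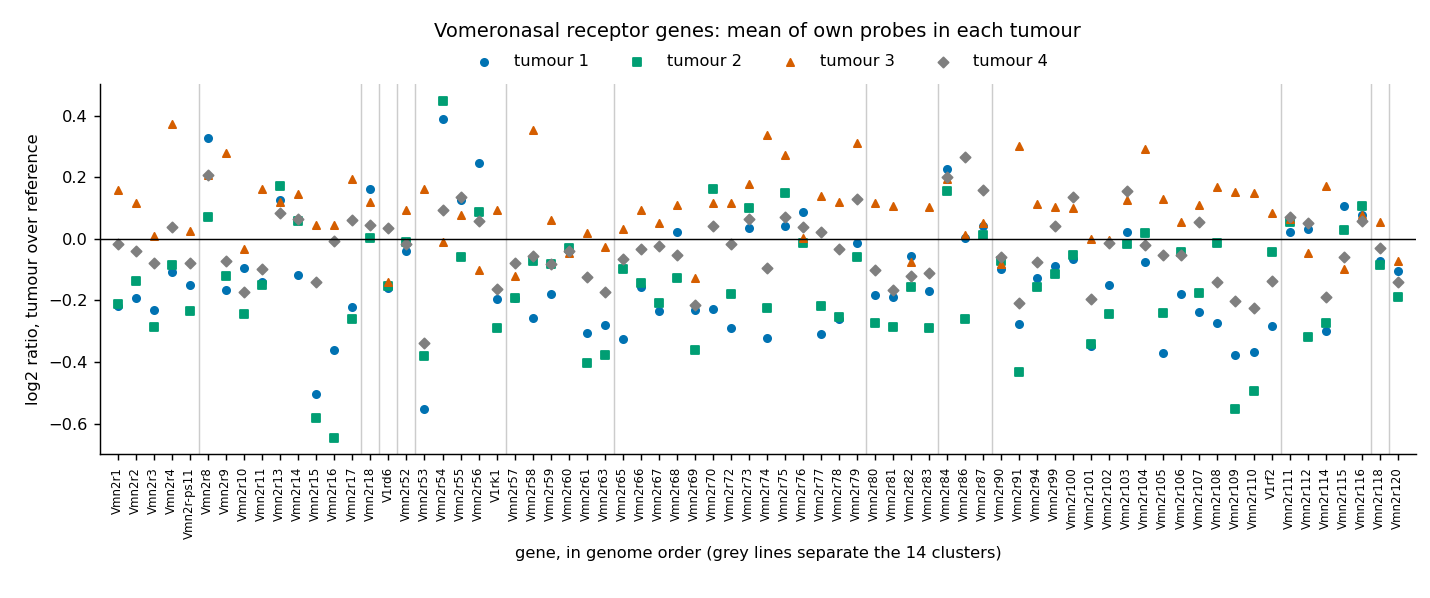
Mean log2 ratio (tumour over reference) of each of the 72 vomeronasal receptor genes over its own probes, in genome order, with 1 symbol per tumour and grey lines between the 14 clusters. Tumour 3 (orange triangles) is the highest of the 4 in 50 of 72 genes, and the largest distance from 0 is 0.65, for Vmn2r16 in tumour 2. That value includes a probe not well above background.

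A single pattern over the tumours was common among the members. Of the 72 genes, 41 (56.9%) were below 0 in tumours 1 and 2 and above 0 in tumour 3, against 15% of all named genes. Among genes of like GC on the same chromosomes the share averaged 18.2%, over the 67 members with at least 5 such genes. Of the 18 olfactory receptor (Olfr) genes on these chromosomes, another large family of chemosensory receptors, 5 (27.8%) had it. Tumour 3 was the highest of the 4 tumours in 69.4% of members and in 28.5% of all named genes. This pattern was picked out after the values were seen and was not tested. Since each tumour was measured on its own array, a difference of a tumour and a difference of an array cannot be told apart.

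No vomeronasal receptor gene passed the test against the reference level. With limma (moderated test of the mean against 0, Benjamini-Hochberg over all 20795 named genes), 0 of 72 had an adjusted p under 0.05, where 0.144% of all named genes did. At an unadjusted p under 0.05 there were 13 members (18.1%, background 25.1%). Of these 8 were lower (background 14.8%) and the rest higher. The lowest adjusted p was 0.11, for Vmn2r84 on chromosome 10. Its values were 0.23, 0.15, 0.19 and 0.20, above the reference in each tumour, but it had 1 probe. The same sign in all 4 tumours was found below the reference for 9 members (background 18.9%) and above it for 9 (background 14.6%). These backgrounds cover genes of all chromosomes. Either count is 12.5% of the members, under the background for the lower direction and near it for the higher. This changed with the processing: 31 members (43.1%, background 22.4%) were below the reference in all tumours with normexp, and 43 (59.7%, background 30.4%) in the remaining tumours without tumour 3. After correction for probe GC 14 members (19.4%, background 14.6%) were above it in all tumours. With normexp 10 members passed, 9 lower (background 6.72%) and 1 higher (background 4.06%). The lower ones were Vmn2r53, Vmn2r69, Vmn2r63, Vmn2r16, Vmn2r61, V1rf2, V1rk1, Vmn2r10 and Vmn2r4, and the higher one was Vmn2r84. Of these only Vmn2r53, Vmn2r16 and Vmn2r61 had more than 1 probe. Vmn2r4 changed direction with the correction. Without normexp it was at -0.11, -0.086, 0.37 and 0.040 in tumours 1 to 4, with a mean of 0.055, above the reference. With normexp 10.8% of all named genes passed, and the members' 13.9% is near it.

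The V1R genes had 1 probe each, so their values have no spread over probes. V1rd6 was at -0.16, -0.15, -0.14 and 0.036 in tumours 1 to 4. V1rf2 was at -0.28, -0.042, 0.083 and -0.14, and V1rk1 at -0.19, -0.29, 0.094 and -0.16. All were below the reference in tumours 1 and 2, and V1rf2 and V1rk1 were above it in tumour 3. The V2R genes had medians of -0.15, -0.14, 0.10 and -0.033.

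Neighbouring members with at most 1 Mb between their probes were joined into 14 clusters, of which 9 held at least 3 genes and 5 held 1. Members of a cluster share a locus and are not independent of each other. The clusters had the pattern to different degrees. In the chromosome 3 cluster (Vmn2r1 to Vmn2r-ps11, chr3:63893202-64646665, 18 probes) the mean over probes was -0.17, -0.22, 0.066 and -0.061 in tumours 1 to 4, with an SE over probes of 0.054, 0.074, 0.036 and 0.027. Vmn2r1 and its neighbours belong to the V2R subfamily whose members are expressed together with other V2Rs in the same neuron. Vmn2r3 had the lowest mean of this cluster, with -0.23, -0.29, 0.010 and -0.080 in tumours 1 to 4 (mean -0.15 ± 0.14, SD, n = 4). For it limma gave an adjusted p of 0.21. The pseudogene Vmn2r-ps11 has the most probes there, 10, and was at -0.15, -0.24, 0.024 and -0.079 (adjusted p from limma, 0.26). All 5 genes were below 0 in tumours 1 and 2 and above it in tumour 3.

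On chromosome 5, the cluster from Vmn2r8 to Vmn2r17 (9 genes, 16 probes, chr5:109232808-109873898) was at -0.16 ± 0.076 (SE over probes), -0.23 ± 0.097, 0.12 ± 0.036 and -0.0063 ± 0.035. Vmn2r15 had the lowest mean of all 72 members: -0.51, -0.58, 0.044 and -0.14, a mean of -0.30 ± 0.30 (SD, n = 4), with an adjusted p of 0.19 from limma. Its neighbour Vmn2r16 was at -0.36, -0.65, 0.046 and -0.0072. Its probe of 23.3% GC was at -0.49, -1.22, -0.17 and 0.043, and its probe of 36.7% GC at -0.065, -0.16, 0.22 and -0.017. The 23.3% GC probe is the member probe that was not well above background in tumour 2. Without it the mean of Vmn2r16 over the tumours was -0.13, against -0.24 with it. In the same cluster Vmn2r13 was above the reference in every tumour, at 0.13, 0.17, 0.12 and 0.084 (mean 0.13 ± 0.036, SD, n = 4, adjusted p from limma 0.16). Its 3 probes did not share that direction: their means over the tumours were 0.17, 0.30 and -0.094. Vmn2r18, alone near the end of chromosome 5, was at 0.16, 0.0016, 0.12 and 0.045.

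Chromosome 7 holds the most members, in 3 larger clusters and 2 single genes. The first cluster, Vmn2r53 to V1rk1 (chr7:13168871-13717392, 9 probes), lay near the reference in every tumour, at 0.0085, -0.051, 0.029 and -0.033. That mean joined genes of opposite sign. Vmn2r53 was at -0.55, -0.38, 0.16 and -0.34 (mean -0.28 ± 0.31, SD, n = 4, adjusted p from limma 0.21), while Vmn2r56 was at 0.25, 0.088, -0.10 and 0.058. Vmn2r53 has a pair of probes of the same GC content that differed: 1 averaged -0.012 over the tumours and the other -0.54. The second cluster, Vmn2r57 to Vmn2r63 (chr7:48663622-50170340, 24 probes), was at -0.16, -0.15, -0.0077 and -0.075. It was the only cluster of at least 3 genes not above the reference in tumour 3. Within it Vmn2r60, with 9 probes, was the steadiest of the named genes at -0.041, -0.030, -0.046 and -0.039 (mean -0.039 ± 0.0068, SD, n = 4, adjusted p from limma 0.53). Its probes differed among themselves, with means over the tumours from -0.28 to 0.18. Vmn2r61 was at -0.31, -0.40, 0.018 and -0.12 (adjusted p from limma, 0.19). The third cluster, Vmn2r65 to Vmn2r79 (14 genes, 26 probes, chr7:92089711-94176615), was at -0.16, -0.12, 0.14 and 0.0072. Vmn2r78, its gene with the most probes along with Vmn2r79, was at -0.26, -0.25, 0.12 and -0.033. The single gene Vmn2r52 was at -0.038, -0.011, 0.093 and -0.016.

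The chromosome 10 clusters differed in level. Vmn2r80 to Vmn2r83 (chr10:78613037-78947045, 4 genes, 16 probes) had the lowest mean over the tumours of the 9 larger clusters, at -0.15 ± 0.066 (SE over probes), -0.25 ± 0.11, 0.065 ± 0.058 and -0.12 ± 0.037. Vmn2r80, with 6 probes, was at -0.18, -0.27, 0.12 and -0.10. The cluster Vmn2r84 to Vmn2r87 (chr10:129824765-129933049, 3 genes, 4 probes) was at 0.078, -0.021, 0.077 and 0.20, the highest mean of the larger clusters. Vmn2r87 was above the reference in all 4 tumours, at 0.042, 0.012, 0.051 and 0.16 (adjusted p from limma, 0.38).

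The chromosome 17 cluster from Vmn2r90 to V1rf2 (chr17:17840918-21399591) is the longest, with 16 genes and 115 probes. It was at -0.13 ± 0.026 (SE over probes), -0.14 ± 0.028, 0.10 ± 0.015 and 0.0075 ± 0.018. Of these probes 76 carry 1 name, Vmn2r99. The 39 probes of the other 15 genes, a split chosen after seeing the data, were at -0.20 ± 0.033, -0.20 ± 0.044, 0.10 ± 0.024 and -0.061 ± 0.031. Their mean over the tumours was -0.090, against -0.040 for all 115 probes. The members of the cluster with the largest means all had them below the reference. Vmn2r109 was at -0.38, -0.55, 0.15 and -0.20 (mean -0.24 ± 0.30, SD, n = 4, adjusted p from limma 0.25). The neighbouring Vmn2r110 was at -0.37, -0.50, 0.15 and -0.22 (adjusted p from limma, 0.24). Vmn2r101 was at -0.35, -0.34, 0.00053 and -0.20 (adjusted p from limma, 0.16). Its 3 probes, all of 35% GC, differed, with means over the tumours of -0.48, -0.14 and -0.045. Vmn2r91 had the largest range of all members with at least 2 probes, from -0.43 in tumour 2 to 0.30 in tumour 3, with -0.28 in tumour 1 and -0.21 in tumour 4. These genes share the order of the tumours, with tumours 1 and 2 lowest and tumour 3 highest. The next cluster on the chromosome, Vmn2r111 to Vmn2r116 (chr17:22697588-23532465, 9 probes), lay close to 0 at -0.017, -0.054, 0.043 and -0.021. It includes Vmn2r116, the receptor for the male tear peptide ESP1, at 0.079, 0.11, 0.079 and 0.057. Vmn2r111 was at 0.023, 0.054, 0.065 and 0.071, and Vmn2r114 at -0.30, -0.27, 0.17 and -0.19. The single genes Vmn2r118 and Vmn2r120 had means of -0.033 and -0.13.

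**Figure D2:**
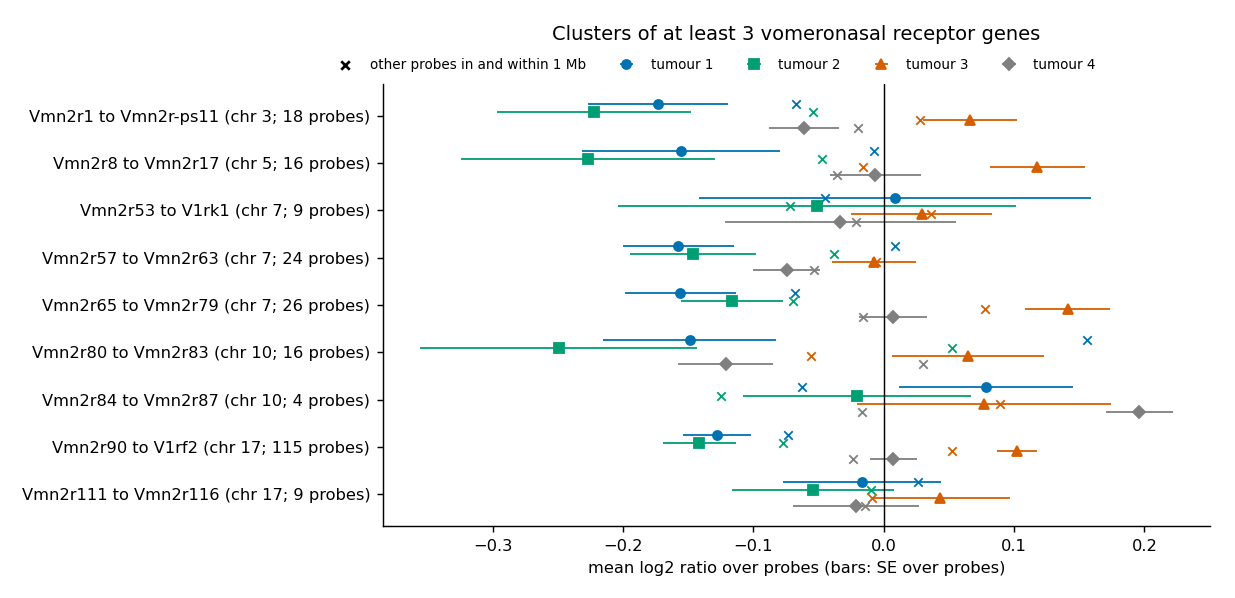
Mean log2 ratio over probes of each cluster of at least 3 genes, per tumour, with bars for the SE over probes; crosses are the mean of all other probes in the cluster and within 1 Mb of it, in the same tumour's colour. Tumours 1 and 2 lie below their crosses in most clusters, and Vmn2r80 to Vmn2r83 lies farthest below, by 0.30 in both.

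Set against other probes of the same loci, the members kept these directions at a smaller size. Minus the mean of the other probes inside their cluster and within 1 Mb of it, the medians of the 72 genes were -0.13, -0.083, 0.059 and -0.017 in tumours 1 to 4. The medians of those surrounding means were -0.065, -0.070, 0.036 and -0.021, with the same sign in each tumour as the members. The largest gap was at Vmn2r80 to Vmn2r83, where the surrounding probes were at 0.16, 0.053, -0.056 and 0.030. The cluster lay 0.16 below them in the mean over the tumours. In tumour 3 it lay 0.12 above them. The means of its 16 probes over the tumours ranged from -0.56 to 0.26. The lowest were the Vmn2r82 probe printed above (-0.56) and a Vmn2r80 probe of 25% GC (-0.55, and -1.33 in tumour 2). The surrounding probes were not matched for GC. Against genes of like GC on the chromosome, the genes of this cluster averaged -0.11.

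The members' probes are AT-rich: their median GC content was 35% (23.3 to 48.9%), against 36.7% for other named probes on the same chromosomes. In tumours 1 and 2 the log2 ratio of vomeronasal probes increased with GC, as it did for other probes. Among probes of 33 to 36% GC, the vomeronasal median in tumour 1 was -0.19, against -0.065 for the others. In the same order the pair was -0.13 and -0.070 for tumour 2, 0.11 and 0.0044 for tumour 3, and -0.016 and -0.031 for tumour 4. Among probes of 36 to 39% GC the pairs were -0.058 against 0.053, -0.063 against 0.021, 0.071 against -0.0030 and 0.010 against 0.013. In both bins the vomeronasal probes were lower in tumours 1 and 2 and higher in tumour 3 than others of like GC.

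**Figure D3:**
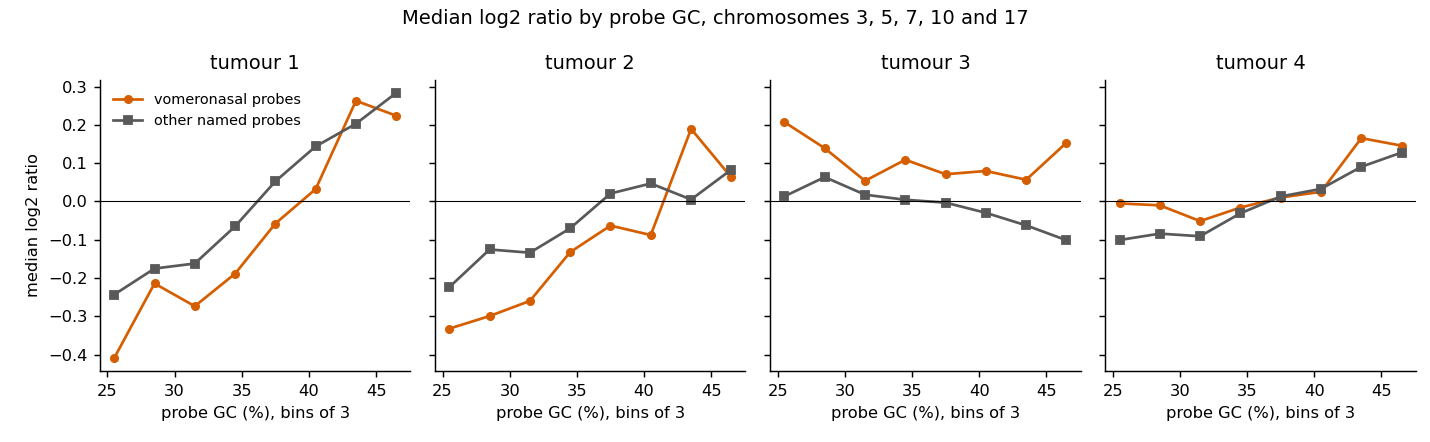
Median log2 ratio of vomeronasal and of other named probes on chromosomes 3, 5, 7, 10 and 17, by probe GC content in bins of 3 percentage points, per tumour. In tumours 1 and 2 the vomeronasal median is below that of the others in each bin under 42%, and in tumour 3 it is above in each bin shown; bins at either end hold as few as 3 vomeronasal probes.

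Each member was then compared with the other named genes on its chromosome whose mean probe GC was within 2 percentage points (between 1 and 1360 genes, median 600). The median difference was -0.14, -0.11, 0.13 and -0.017 for tumours 1 to 4, a mean of -0.036 ± 0.12 (SD, n = 4). It was below 0 for 54, 52, 10 and 44 of the 72 members. With normexp the median difference was -0.16, -0.14, 0.058 and -0.029, of the same sign in each tumour. On chromosome 5, where a member had 9 like genes in the median, the differences were 0.039, 0.0059, 0.14 and 0.049 in the median. There 4 of the 10 members were below their like genes in tumour 1 and 5 in tumour 2, with as few as 1 like gene for a member. On chromosome 7 they were -0.21, -0.11, 0.13 and -0.0097, and on chromosome 17 -0.15, -0.10, 0.13 and -0.031. Olfr genes, treated the same way, had differences of -0.078, -0.048, 0.12 and 0.0039. After a correction of every probe for its GC content by a smooth curve per array, the medians of the members were -0.078, -0.092, 0.095 and -0.0092. The correction brought tumours 1, 2 and 4 closer to 0 and left tumour 3 nearly as it was.

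The probes named Vmn2r99 show the dependence on GC inside a single stretch. The array gives this name to 76 probes over 1091 kb (chr17:18423885-19515318), with no other probe between them. How many of them lie in the gene itself is not known, since no mm9 annotation was used. The values given for Vmn2r99 are those of the whole stretch. In tumours 1 to 4 the mean of the stretch was -0.089 ± 0.035 (SE over its probes), -0.11 ± 0.035, 0.10 ± 0.019 and 0.043 ± 0.022. The adjusted p from limma was 0.88. The 29 probes with a GC content under 34% averaged -0.31, -0.33, 0.11 and -0.050. The 27 probes from 34 to under 38% averaged -0.074, -0.066, 0.098 and 0.034. The 20 probes of 38% or more averaged 0.21, 0.13, 0.10 and 0.19. In tumours 1, 2 and 4 the classes were in the order of their GC content, and in tumour 3 they were level. The probes printed at the start as the extremes were at -0.54, -0.55, 0.019 and -0.17 (23.3% GC) and at 0.22, -0.11, -0.17 and 0.15 (46% GC). Over the 76 probes the correlation of ratio and GC was 0.61, 0.50, -0.024 and 0.35, as a description of neighbouring probes on the same arrays. The mean of Vmn2r99 over the tumours, -0.014, changed sign with GC correction (0.016), without tumour 1 (0.011) and without tumour 2 (0.019).

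**Figure D4:**
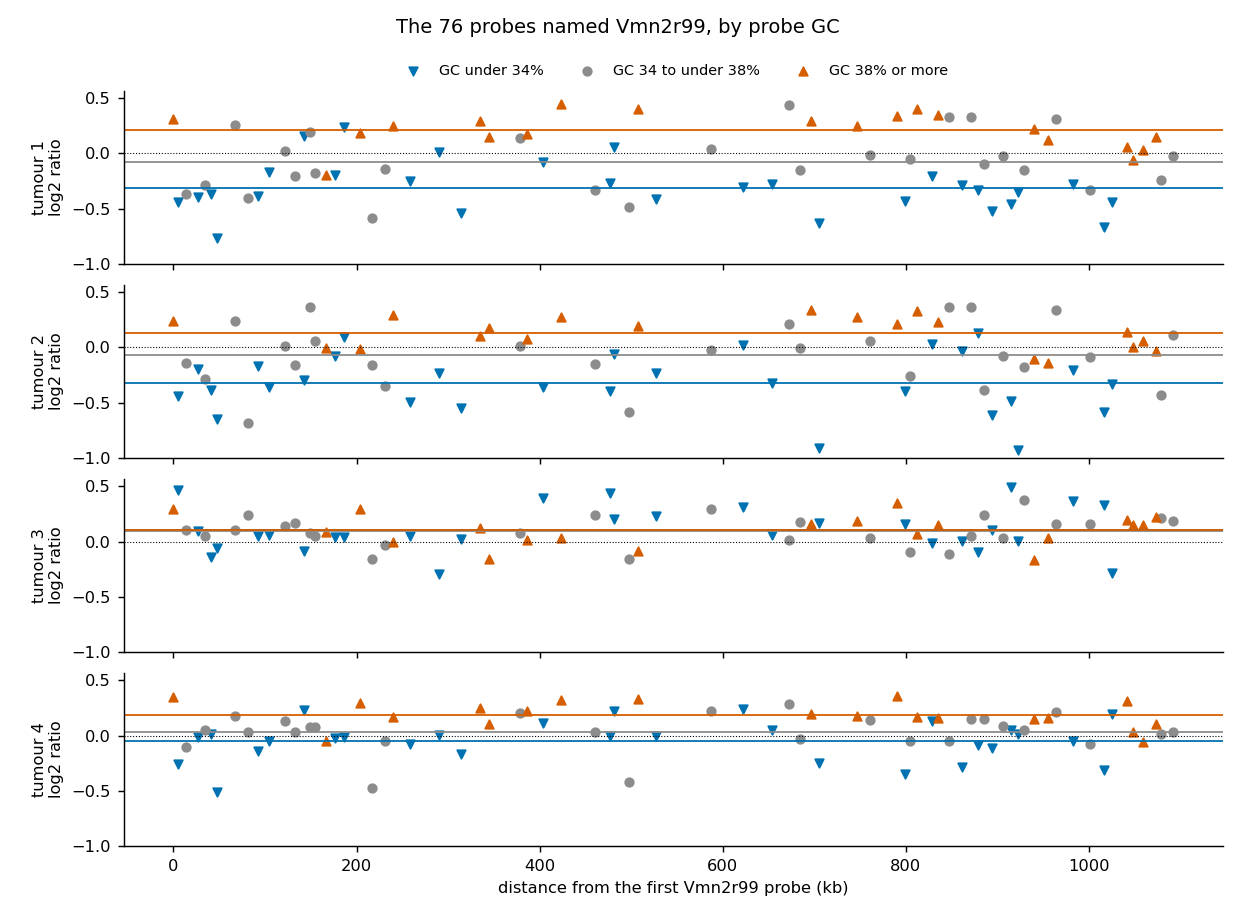
Log2 ratio of each of the 76 probes named Vmn2r99 against the distance from the first of them, with 1 panel per tumour; symbols and the horizontal mean lines give the GC class of the probe. Low-GC probes average -0.31 and high-GC probes 0.21 in tumour 1, interleaved along the locus, while in tumour 3 the class means lie within 0.098 to 0.11.

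Among single probes, 1 of the 247 passed limma with adjustment over all 170305 probes (background 0.727%), and 59 had an unadjusted p under 0.05 (23.9%, background 28.8%). The probe that passed belongs to Vmn2r82, whose sequence is printed above. It was at -0.54, -0.81, -0.45 and -0.45 in tumours 1 to 4, below the reference in all of them, with a mean of -0.56 ± 0.083 (SE from limma) and an adjusted p of 0.040. Its reference signals of 554, 384, 267 and 606 were below the medians of the member probes, 892, 937, 888 and 919. The 3 other probes of Vmn2r82 averaged -0.0051, 0.19 and -0.034 over the tumours, so the low value was confined to 1 of its 4 probes. It passed with GC correction too (adjusted p 0.046 from limma). Then a probe of Vmn2r79 passed as well, at 0.20, 0.30, 0.42 and 0.42 before correction (adjusted p 0.049 from limma after it), against a background of 0.802%. With 1 tumour left out, 0 member probes passed without tumour 1, 2 or 4 (background 0.45%, 0.0804% and 0.109%) and 47 did without tumour 3 (19% of them, background 22.4%).

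The probe with the lowest mean belongs to Vmn2r110 and was at -0.86, -1.07, -0.026 and -0.70, near the reference in tumour 3 alone (adjusted p from limma, 0.077). The other probes of that gene averaged 0.047 and -0.087 over the tumours. The probe with the highest mean belongs to Vmn2r55 and was at 0.61, 0.61, 0.15 and 0.20 (adjusted p from limma, 0.085). A second Vmn2r55 probe lies less than 1 kb away and was at -0.35, -0.73, 0.0068 and 0.065, opposite in sign in tumours 1 and 2. In these genes the extreme value was that of a single probe. The other Vmn2r110 probes were below 0 in tumours 1 and 2 as well, at -0.067 and -0.15 and at -0.17 and -0.27. For Vmn2r55, probes of opposite sign do not show which value is that of the locus.

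No member lay in a short stretch past the thresholds used. Runs of at least 3 neighbouring probes past 0.3 in the mean over the tumours held 0 of the 72 genes, where 1.74% of all named genes lay in runs above and 0.947% in runs below the reference. Within single tumours, runs past 0.5 held 0 members in each of the 4. Of all named genes, runs above the reference held 4%, 0.842%, 0.0433% and 0.0337% for tumours 1 to 4. Runs below it held 0.904%, 0.928%, 0.0385% and 0.0721% of them. All these shares are over every chromosome, X included, where tumour 1 averaged 0.81. Shares over the members' own chromosomes were not computed. At the shares given, few of 72 genes would lie in runs. Without tumour 3, lower runs held 3 members, Vmn2r-ps11, Vmn2r80 and Vmn2r81 (4.17%, background 2.32%).

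The spread of the member probes was not larger than that of others. Within the middle range of GC content, 33.3 to 36.7%, the SD of the log2 ratio over 134 member probes was 0.27, 0.29, 0.17 and 0.18 in tumours 1 to 4, against 0.28, 0.33, 0.19 and 0.20 over 18811 other named probes. In that range the median reference signal of member probes was 953 in tumour 1 against 959 for the others, and their tumour signal was 812 against 930. In tumour 2 the reference signals were 1013 and 1022 and the tumour signals 911 and 1000. In tumour 3 the reference signals were 965 and 1023 and the tumour signals 1049 and 1035. In tumour 4 they were 1006 and 1003, and 964 and 1001. The members' reference signals were thus close to those of other probes in tumours 1, 2 and 4, and lower in tumour 3. The range did not match GC fully, since its median was 35% for member probes and 36.7% for the others.

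Across the 72 members the tumours were alike except tumour 3. The correlation over genes was 0.76 between tumours 1 and 2, 0.70 between 1 and 4 and 0.61 between 2 and 4, against 0.76, 0.54 and 0.66 over all named genes. Tumour 3 correlated with tumours 1, 2 and 4 at -0.12, 0.082 and 0.098 over the members, and at 0.082, 0.20 and 0.31 over all named genes. These are descriptions: all arrays share the reference pool and the probes, and tumours 1 and 4 share a slide.

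The genes that act with the receptors were looked at through a list of 46 names, of which 26 were measured on the array, on several chromosomes. None of the 26 had an adjusted p under 0.05 from limma (background 0.144%). At an unadjusted p under 0.05 there were 2, both higher, where 25.1% of all named genes passed in either direction. They were Trpc2, the cation channel that opens in vomeronasal neurons, and Plcb2, a phospholipase C. Trpc2 was above the reference in each tumour, at 0.23, 0.35, 0.094 and 0.20 (mean 0.22 ± 0.11, SD, n = 4, adjusted p from limma 0.12). Plcb2 was at 0.21, 0.16, 0.082 and 0.032 (adjusted p from limma, 0.20). The G protein subunits of the receptor families were at -0.14 for Gnai2 and at 0.020 for Gnao1, in the mean over the tumours. Gnai2, with 1 probe on chromosome 9, was the lowest of the transduction genes.

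Of the developmental genes, Bcl11b on chromosome 12, a transcription factor of vomeronasal neuron development, was lowest at -0.22, -0.23, -0.15 and 0.052. Kirrel2, an adhesion molecule of sensory axons, was highest in the mean at 0.19 but had 1 probe and ranged from -0.88 in tumour 3 to 0.72 in tumour 1. The formyl peptide receptors Fpr1 and Fpr2 lie inside the long chromosome 17 cluster, with 1 probe each. Fpr1 was at -0.041, 0.10, 0.091 and -0.072, and Fpr2 at -0.91, -0.042, 0.22 and -0.38. The H2-M genes, whose products are found with V2R receptors, ran from -0.16 for H2-M10.1 to 0.047 for H2-M10.6 in the mean. Of the ligand genes, Mup3, a major urinary protein gene, averaged 0.0015 and the odorant-binding protein gene Obp1a, on X, 0.27. The median of the 26 genes was 0.013, -0.052, -0.0041 and -0.00068 in tumours 1 to 4, without the pattern of the receptors. It includes genes on chromosomes without members, such as 9 and 12, and is not a comparison within the members' chromosomes.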

How the data were processed

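The tumour (Cy5, red) and reference (Cy3, green) DNA were hybridised together on 1 Agilent array per tumour, per the labels. The authors deposited log10 ratios of red over green, background-subtracted and dye-scaled by the scanner software with a lowess dye term of 0, per the file headers. The submitters' processing notes name Agilent Feature Extraction 10.7.3.1. Intensity values of both channels, processed and raw, with local background, were deposited too. The deposited value table matched the ratios at all 180880 spots. Median signals over background were 523 to 1291 in red and 164 to 668 in green.

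Ratios were turned from the deposited log10 into log2 values. Control spots and outlier spots (93 to 126 per array) were left out, spots of 1 probe averaged, and the autosomal median of each array subtracted. Each gene was summarised by the mean of its own probes. Values were tested against 0 with limma 3.58.1 in R 4.3.3, with Benjamini-Hochberg adjustment over all named genes or all probes; the spread of the reference is not in this test. The rest used Python 3.11.15, pandas 2.3.3 and statsmodels 0.14.6. The test was tried on simulated data: of 200 among 20794 genes shifted by 0.3 in log2 ratio 0% were called, of those shifted by 0.6 68% and of those shifted by 1 94.5%. Shifts of the size of the members' medians were therefore not detectable gene by gene.

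The members, lists, tests and alternatives were chosen with earlier results of these data known. Named members (19) are those past the test, the 10 with the largest mean and the 5 with the largest range among genes with at least 2 probes, and the gene with the most probes of each cluster of at least 3. Pathway genes named are the extremes of each sub-list. Genes named beyond these rules were chosen after their values were seen. Gene names are those of the array, matched to a RefSeq table of another build for names only. Alternatives were centring on the mode, normexp (offset 50), a filter on dim probes, the value table, GC correction by lowess, leaving out each tumour, and other settings for genes, clusters, windows and runs. Each tumour came from its own mouse, per the series' design.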

Additional observations from a re-analysis of the deposited data

How the results depend on the processing

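The count of 0 members past limma was unchanged under centring on the mode, the value table, the filter on dim probes, GC correction, each tumour left out, genes of at least 2 probes, medians over probes and 50 kb flanks. It was 10 with normexp. Normexp also gave 62 member probes (25.1%, background 23.9%), 31 members below the reference in all tumours (43.1%, background 22.4%) and 2 members in shared runs, Vmn2r84 (higher, background 4.13%) and Vmn2r-ps11 (lower, background 3.88%). GC correction gave 2 member probes and 14 members above the reference in all tumours (19.4%, background 14.6%). Leaving out a tumour gave 0 to 47 member probes, 9 to 43 members below the reference in all remaining tumours and 0 to 3 members in shared runs, with each highest count reached without tumour 3. For the 43 members (59.7%) the background was 30.4%. Centring on the mode gave 6 of 72 members above the reference in all tumours (8.33%, background 11.8%), and genes of at least 2 probes gave 6 of 51 (11.8%, background 13.2%). A run threshold of 0.2 gave 1 member, Vmn2r-ps11 (background 4.41%). The mean of the medians was -0.12 to -0.021 over all alternatives, and the mean difference from genes of like GC -0.089 to 0.00033, where the value nearest 0 came without tumour 1. Surrounding probes in place of like genes, an alternative chosen after seeing the data, gave -0.043. Clusters numbered 18 and 12 with gaps of 500 kb and 2 Mb. Of the named genes' values under the alternatives 202 kept direction and side of the threshold, and 4 reversed: Vmn2r99 as given with its values (0.016, 0.011 and 0.019; -0.053 to 0.019 over the tumours left out) and Vmn2r78 with 50 kb flanks (0.014). Vmn2r16, Vmn2r53 and Vmn2r61 passed the test with normexp, at -0.32, -0.44 and -0.29 (adjusted p from limma 0.034, 0.036 and 0.042). The value of Vmn2r16 there includes its dim probe. The causes were not tested. The slide could not be fitted as a random block, since 4 arrays on 3 slides gave no estimate of a correlation. No paired analysis was possible because all tumours form 1 group and the labels carry no replicate numbers. The number of arrays and the 21 members with 1 probe limit what can be read from these values. So does the sign of the group against 0 in tumour 3, which differs between background corrections. Compared with genes of like GC, the group was above in tumour 3 with normexp too, at 0.058.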

Other observations

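Vomeronasal receptor genes on chromosome 6 were not members. The medians of these 9 genes (19 probes) were -0.15, -0.016, 0.054 and -0.067 in tumours 1 to 4, and 6, 5, 3 and 6 of the 9 were below 0. Of these 0 passed limma over all named genes (background 0.144%) and 1 had an unadjusted p under 0.05 (background 25.1%): Vmn2r25, with 1 probe, at -0.41, -0.63, -0.050 and -0.33 (mean -0.36 ± 0.24, SD, n = 4, adjusted p from limma 0.13). Vmn2r26, a receptor for peptides that bind to major histocompatibility molecules, was near the reference at 0.029, -0.021, 0.025 and -0.066. Among V1R genes there, V1ra1 was at -0.44, -0.26, 0.38 and -0.11, V1ra2 at -0.046, 0.0069, -0.071 and 0.079, and V1rc15 at 0.092, 0.25, -0.047 and 0.19. Vmn2r121 on X, with 1 probe, was at 0.47, 0.12, 0.10 and 0.049, and tumour 1 had the highest mean of X.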
